A study of Arabidopsis thaliana with 45 samples.

Results

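The 6 Arabidopsis genes HRD1B, PCMP-H35, ATMYB3R5, XI-F, VIP4 and AT1G10320 were followed through the lists of differentially methylated CG windows of plants exposed to gamma radiation. They were selected on these lists, as genes listed in several comparisons that involve 30 mGy/h, so that the differences below are descriptions and carry no test. Every CG window was taken whose nearest-gene name, as the authors listed it, was one of the 6 names. This gave 19 different windows of 200 bp, of 2331 listed CG window positions in all, and 6 of 2066 listed gene names. The same windows returned in several comparisons, and within a gene, different windows also changed, often in opposite directions. The 6 genes came to 39 entries, 1 entry being a window in 1 comparison, of which 11 were hypermethylated and 28 hypomethylated in the later generation or at the higher dose rate.

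The samples were rosettes of Arabidopsis thaliana from 3 generations, P0, S1 and S2, grown at background radiation (γ0, control), at 30 mGy/h (γ30) or at 110 mGy/h (γ110), with 5 samples in each of 9 conditions. Exposure to a Cs-137 gamma source lasted 14 days. Each line was kept under its own treatment, so that before their own exposure γ30 and γ110 plants had 0 irradiated generations behind them in P0, 1 in S1 and 2 in S2, and γ0 plants had none in any generation. In γ30 and γ110, the generation and the number of irradiated ancestors therefore cannot be told apart. By the paper, the controls stood in a chamber of their own, with matched temperature and light. Chamber and irradiation therefore cannot be told apart in comparisons with γ0. Exposure began at an age of 7 days by the series description and of 14 days by the sample protocol. DNA was analysed by whole genome bisulfite sequencing, which reads methylated cytosines as C and unmethylated ones as T. For each window, 1 level per group was listed, the authors' value as a fraction from 0 (no read methylated) to 1 (all reads methylated). Levels of the single samples and the coverage behind a level were not analysed here, so no SD, interval or limit of detection can be given for any level, and a group without a listed value for a window has an unknown level there. A window that is not listed in a comparison was not called by the authors, which does not show that its level was the same in both groups.

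CG methylation within the transcribed part of genes, called gene body methylation, is common in moderately expressed plant genes. It is copied to the new strand after replication by the methyltransferase MET1 and can be inherited over generations, and single CG sites can gain or lose it over generations without any treatment. Its relation to expression is weaker than that of methylation at promoters or transposable elements (TEs). The 6 genes have different tasks. HRD1B encodes a ubiquitin ligase of the endoplasmic reticulum membrane that takes part in the removal of misfolded proteins. PCMP-H35 names a pentatricopeptide repeat protein, a family that binds organelle transcripts. ATMYB3R5 (MYB3R-5) is an R1R2R3-MYB transcription factor that represses genes of the transition from G2 to M phase. XI-F is a class XI myosin, a motor that moves organelles along actin filaments. VIP4 is a subunit of the Paf1 complex, which accompanies RNA polymerase II during elongation and is needed for expression of the flowering repressor FLC. AT1G10320 is annotated as a CCCH zinc finger protein related to the small subunit of the splicing factor U2AF.

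Reference sequences of 8 windows are shown because they carry the repeated differences described below, and because they let a reader see how few CG sites stand behind a level. They are the plus strand of the TAIR10.1 assembly from RefSeq, 5′ to 3′, with each CG site in capitals. All 6 genes lie on the minus strand, so the sequences read against the direction of transcription. HRD1B window 1 is chr1:24160801-24161000, PCMP-H35 window 2 is chr5:3103201-3103400, ATMYB3R5 window 4 is chr5:483601-483800 and XI-F window 5 is chr2:13569201-13569400. VIP4 windows 2 and 3 are chr5:24605401-24605600 and chr5:24606001-24606200. AT1G10320 windows 1 and 3 are chr1:3385001-3385200 and chr1:3386801-3387000. Windows were numbered within a gene by rising coordinate.
HRD1B window 1: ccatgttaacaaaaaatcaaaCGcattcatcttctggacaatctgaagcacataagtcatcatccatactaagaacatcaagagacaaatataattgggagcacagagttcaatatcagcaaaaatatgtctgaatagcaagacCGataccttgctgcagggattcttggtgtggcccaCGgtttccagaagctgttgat
PCMP-H35 window 2: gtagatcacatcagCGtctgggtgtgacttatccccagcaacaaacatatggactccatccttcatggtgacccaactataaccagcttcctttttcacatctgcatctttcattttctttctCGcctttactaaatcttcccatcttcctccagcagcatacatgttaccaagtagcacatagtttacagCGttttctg
ATMYB3R5 window 4: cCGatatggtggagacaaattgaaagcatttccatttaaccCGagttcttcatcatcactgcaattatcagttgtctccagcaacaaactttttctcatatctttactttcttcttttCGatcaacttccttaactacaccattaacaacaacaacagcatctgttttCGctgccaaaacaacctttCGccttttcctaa
XI-F window 5: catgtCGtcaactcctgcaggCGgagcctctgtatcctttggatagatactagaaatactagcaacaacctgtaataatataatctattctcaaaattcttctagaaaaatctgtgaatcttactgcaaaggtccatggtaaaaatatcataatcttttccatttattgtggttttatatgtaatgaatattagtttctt
VIP4 window 2: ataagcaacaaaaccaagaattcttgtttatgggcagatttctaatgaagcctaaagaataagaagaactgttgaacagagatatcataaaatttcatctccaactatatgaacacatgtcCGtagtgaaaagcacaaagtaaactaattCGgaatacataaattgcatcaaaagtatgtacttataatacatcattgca
VIP4 window 3: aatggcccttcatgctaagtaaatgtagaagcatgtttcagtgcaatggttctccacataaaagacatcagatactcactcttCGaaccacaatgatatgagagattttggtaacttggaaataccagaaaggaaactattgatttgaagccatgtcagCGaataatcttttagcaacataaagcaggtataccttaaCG
AT1G10320 window 1: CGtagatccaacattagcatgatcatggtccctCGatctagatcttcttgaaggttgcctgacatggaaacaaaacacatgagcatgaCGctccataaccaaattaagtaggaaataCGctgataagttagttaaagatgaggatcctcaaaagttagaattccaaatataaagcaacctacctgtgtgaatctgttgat
AT1G10320 window 3: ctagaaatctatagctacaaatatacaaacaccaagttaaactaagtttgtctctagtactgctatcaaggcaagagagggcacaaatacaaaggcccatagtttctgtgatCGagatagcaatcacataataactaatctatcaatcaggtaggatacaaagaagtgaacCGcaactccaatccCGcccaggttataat

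The 19 windows held 2 to 6 CG sites each, with a median of 3, which was also the median of all 2331 listed windows, while the median over all genome windows with a CG was 4. A window of 3 CG sites covered alike reads 0.333 when 1 site is methylated in every read and the others in none. With sites covered alike, a change at 1 site alone can move a level by at most 1 divided by the number of sites. This limit was passed clearly in XI-F window 1, where it is 0.5 and the differences were 0.666 to 0.770, in ATMYB3R5 window 4, where it is 0.2 and they were 0.347 to 0.379, and in VIP4 window 1, where it is 0.167 and the difference was 0.305. It was passed by under 0.01 in 1 comparison each for HRD1B window 2 and PCMP-H35 window 2, and in the other 14 windows the differences stayed below it. The coverage of the sites is unknown, and the level of a window does not show which sites differed. Of the 58 CG sites in the 19 windows, 38 lay in coding sequence, 17 in introns and 3 in untranslated exons. In all, 14 windows overlapped a coding exon, 4 of them over their full length, and 3 lay wholly in introns. The authors' classes were gene body for 14 windows, promoter for 2 and no class for 3. No window overlapped a listed TE, and none of the 6 names was listed for a CHG or CHH window. The levels ranged from 0.00749 to 0.941 and the absolute differences from 0.211 to 0.770, with a median of 0.333. The lower end lies just above the smallest difference of 0.2 that the authors listed, and windows below it were not analysed here.

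**Figure D1:**
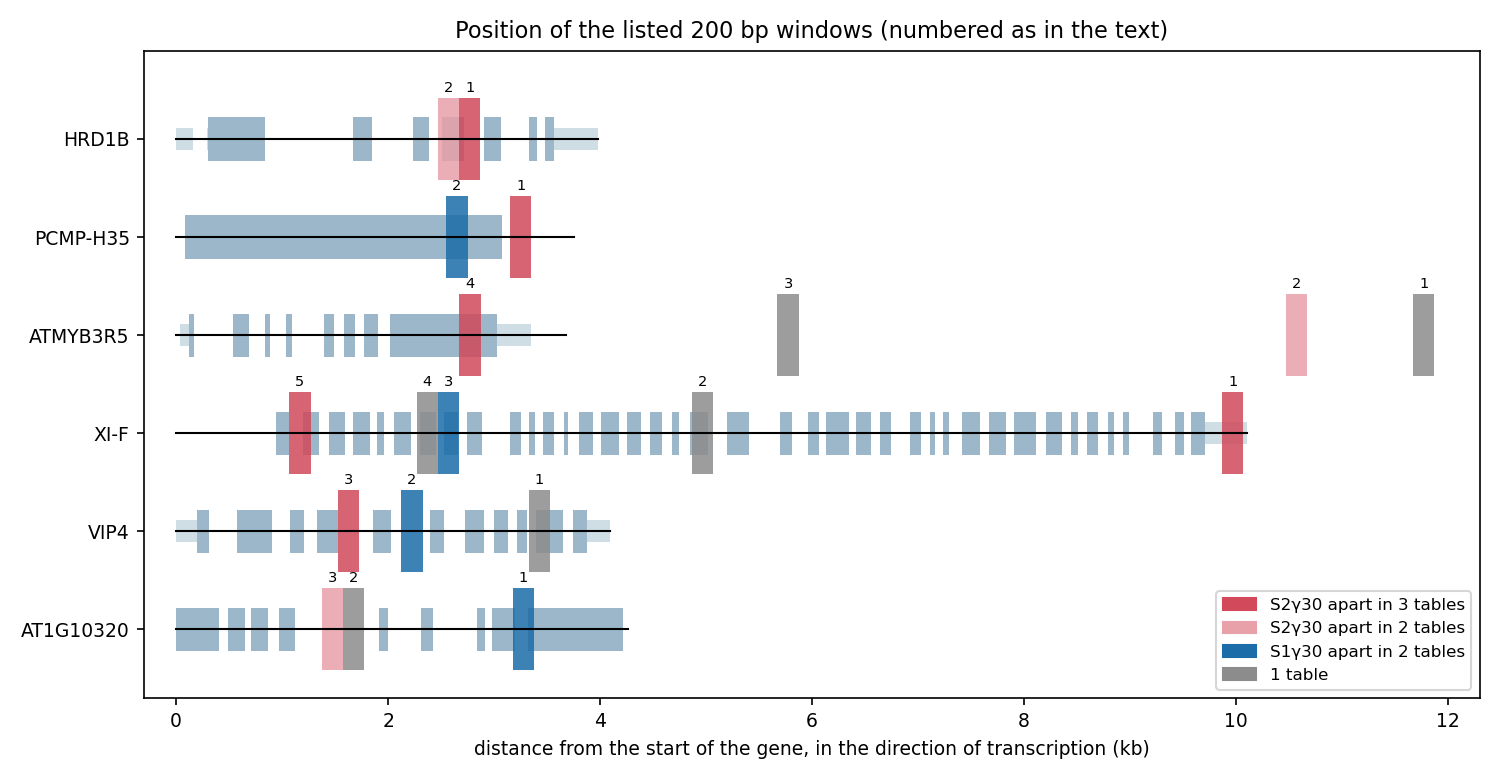
Position of the 19 windows along the 6 genes, in kb from the gene start in the direction of transcription. Tall blue-grey boxes are coding exons and short pale boxes untranslated exons of the transcript with the longest coding sequence, and coloured bars are the windows of 200 bp. The 3 windows named ATMYB3R5 to the right of that gene lie in the neighbouring gene PRT6, and red bars, in which S2γ30 stood apart in 3 comparisons, occur in 5 genes.

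Of 18 pairwise comparisons, 10 had listed windows and 6 had a window of the 6 genes. The comparison of S1γ30 with S2γ30 listed 16 of the 19 windows, in all 6 genes. It also listed 1844 of all 2331 positions, or 79.1%, so that most listed windows of any gene come from it. The comparison of S2γ0 with S2γ30 listed 9 of the 19 windows in 5 genes, and P0γ30 vs. S2γ30 listed 8 in all 6 genes. P0γ30 vs. S1γ30 listed 4 windows in 4 genes, S1γ0 vs. S1γ30 listed 1 window, of XI-F, and S2γ0 vs. S2γ110 listed 1 window, of HRD1B. As background, the listed windows were 0.325% of the 566882 genome windows with a CG for S1γ30 vs. S2γ30, 0.136% for the S2 control against S2γ30, 0.0480% for P0γ30 vs. S2γ30, 0.0325% for P0γ30 vs. S1γ30, 0.0228% for S1γ0 vs. S1γ30 and 0.000882% for S2γ0 vs. S2γ110. The number of windows with enough coverage to be compared was not used, so these shares are lower than shares of the compared windows. Since the genes were chosen for being listed, nothing is read from their excess over this background. No window of the 6 genes was listed in the comparisons of S1γ30 or S2γ30 with γ110 of the same generation, of S1γ0 with S1γ110 or of S1γ110 with S2γ110. Levels in P0γ0, P0γ110 and S1γ110 are therefore unknown here for all 19 windows.

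The hypomethylated windows outnumbered the hypermethylated ones in the 3 comparisons that set S2γ30 against P0γ30, S1γ30 or S2γ0, while among the listed windows of all genes the hypermethylated ones were more numerous in these 3. In S1γ30 vs. S2γ30, 11 windows of the 6 genes were lower and 5 higher in S2γ30, whereas over the genome 0.143% of windows were listed as lower and 0.182% as higher. In P0γ30 vs. S2γ30, 6 were lower and 2 higher, against 0.0180% listed as lower and 0.0300% as higher. In S2γ0 vs. S2γ30, 7 were lower and 2 higher, against 0.0552% and 0.0808%. These 3 comparisons share the S2γ30 group, so a low level in S2γ30 enters all of them, and the 3 splits are not independent of each other. The split was among the values the genes were chosen by and was not tested.

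**Figure D2:**
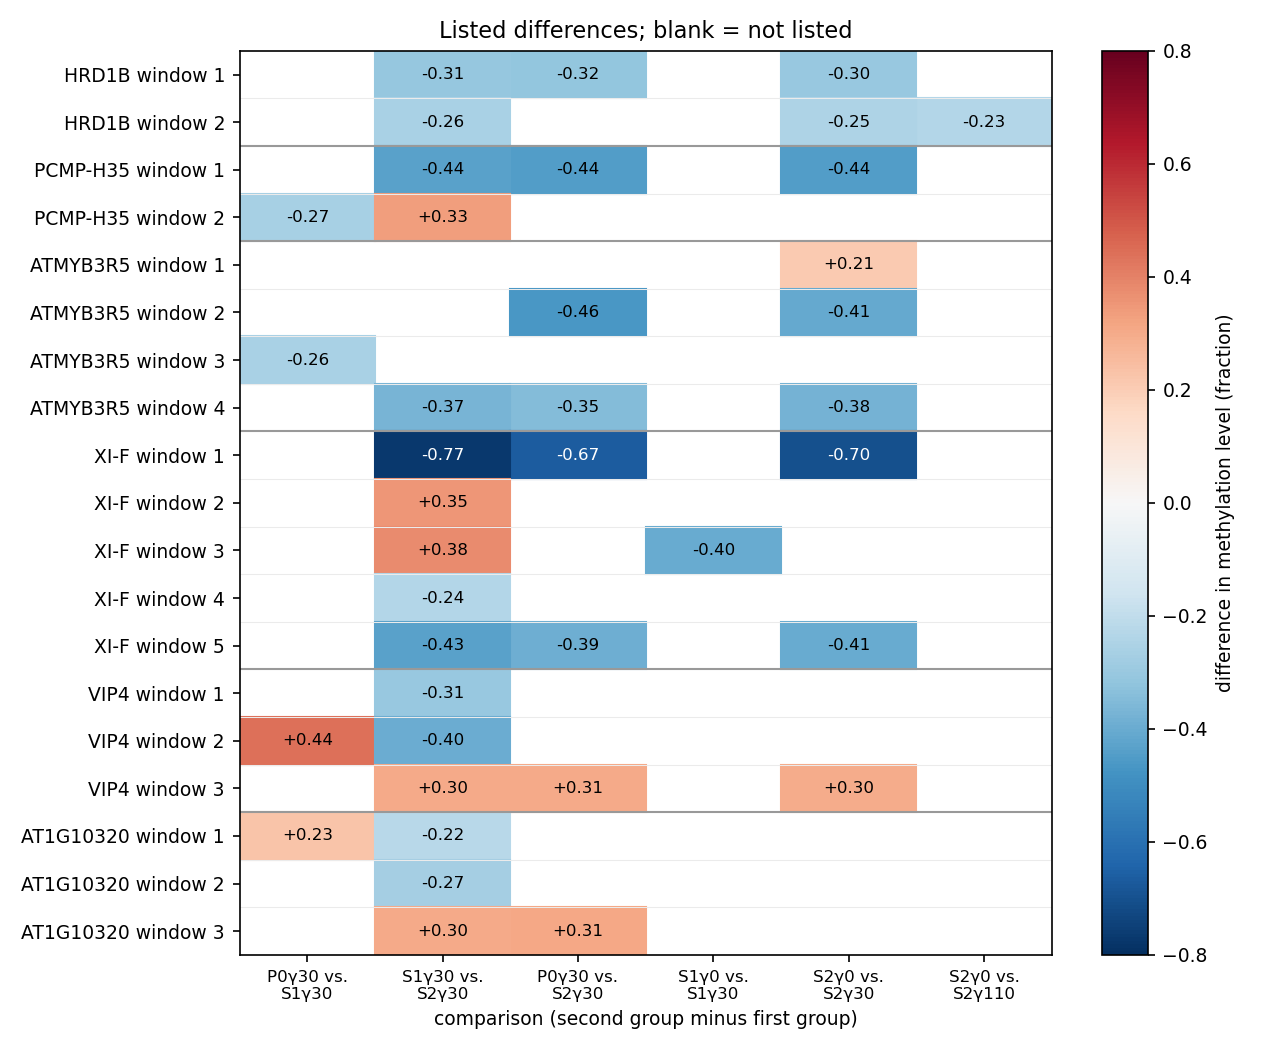
Difference in CG methylation level (fraction, second group minus first group) for the 19 windows (rows) in the 6 comparisons that list them (columns). Blue cells are hypomethylated and red cells hypermethylated, and a blank cell is not listed. Rows with 3 blue cells from -0.770 to -0.301 in the comparisons with S2γ30 are found in HRD1B, PCMP-H35, ATMYB3R5 and XI-F.

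Of the 19 windows, 6 were listed in 1 comparison, 6 in 2 and 7 in 3. Thus 68.4% recurred in at least 2 comparisons, where 30.8% of all 2331 listed windows did, and 36.8% in at least 3, where 8.88% did. The genes were picked for recurrence, so these shares describe the choice. By the groups that stood apart, the recurring windows fell into 3 kinds. In 6 windows of 5 genes S2γ30 differed from each of P0γ30, S1γ30 and S2γ0, and was lower in 5 of them and higher in 1. Over all genes 151 windows were listed in these 3 comparisons, of which 100 were higher and 51 lower in S2γ30. In 3 further windows S2γ30 was listed against 2 other groups. Among them, HRD1B window 2 had S2γ110, at 0.647, close to S2γ30, at 0.633, so S2γ30 did not stand apart alone there. In 4 windows of 4 genes S1γ30 stood apart from 2 groups, being lower in 2 and higher in 2. These 4 windows were therefore higher in one comparison and lower in another. Over all genes 114 windows were listed for S1γ30 against both P0γ30 and S2γ30, as were those of PCMP-H35, VIP4 and AT1G10320. The window of XI-F was listed against S1γ0 and S2γ30. For the windows of PCMP-H35, VIP4 and AT1G10320 no level in S1γ0 was listed, and S1γ0 vs. S1γ30 did not list them.

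HRD1B (AT1G65040, chr1:24159685-24163669) had 2 adjoining windows, and both were hypomethylated wherever they were listed. In window 1 the level was 0.337 in P0γ30, 0.324 in S1γ30, 0.319 in S2γ0 and 0.0180 in S2γ30. The 3 other groups lay within 0.0176 of each other, and S2γ30 stood alone near 0. The differences were -0.319 against P0γ30, -0.306 against S1γ30 and -0.301 against S2γ0. Window 1 held 3 CG sites, of which 2 lay in an intron and 1 in the 50 bp of coding exon at its end, as the sequence above shows at positions 22, 145 and 180.

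HRD1B window 2 (chr1:24161001-24161200) held 4 CG sites, all in coding sequence, and was highly methylated in the control, at 0.881 in S2γ0. The level was 0.890 in S1γ30, 0.633 in S2γ30 and 0.647 in S2γ110. S2γ30 and S2γ110 thus both lay below S2γ0, with differences of -0.249 and -0.234 from that shared control, and were 0.0142 apart. This was the single window of the 6 genes with a level at 110 mGy/h, and S2γ0 vs. S2γ110 listed 5 CG windows in all. HRD1B was named in 4 comparisons, and 2 of the 19 windows with a CG that overlap the gene were listed.

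PCMP-H35 was not a symbol in the annotation used here. Both windows of that name lay in AT5G09950 (chr5:3102195-3105950), annotated as MEF7, a pentatricopeptide repeat protein of the DYW class for RNA editing in mitochondria. The 2 windows lay 400 bp apart and changed in opposite directions between S1γ30 and S2γ30. In window 1 (chr5:3102601-3102800) the level was 0.457 in P0γ30, 0.449 in S1γ30, 0.456 in S2γ0 and 0.0121 in S2γ30. The 3 other groups spanned 0.00772, and S2γ30 was near 0, with differences of -0.445, -0.437 and -0.444 in the same order. Its 2 CG sites lay at the 3′ end of the gene, 1 in an intron and 1 in an untranslated exon.

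PCMP-H35 window 2, wholly coding with 3 CG sites, had levels of 0.771 in P0γ30, 0.503 in S1γ30 and 0.837 in S2γ30. Of these groups S1γ30 was the low one, with -0.268 from P0γ30 and +0.333 on to S2γ30, and P0γ30 and S2γ30 were 0.0655 apart. No level in S1γ0 was listed for this window. The authors' class for window 1 was promoter, although the gene runs on the minus strand and the window lay near its 3′ end. Of the 3 annotated transcripts, 1 ends 77 bp before that window and the others reach it.

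ATMYB3R5 (AT5G02320, chr5:482793-486473) was the name of 4 windows, of which 1 lay in the gene. Window 4, wholly coding with 5 CG sites, had levels of 0.524 in P0γ30, 0.549 in S1γ30, 0.557 in S2γ0 and 0.178 in S2γ30. S2γ30 was again the low group, at -0.347, -0.372 and -0.379 from the others, which spanned 0.0325. Here S2γ30 kept some methylation, and its CG sites were spread from position 2 to position 188 of the window.

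The other 3 windows named ATMYB3R5 lay 7993, 6793 and 1993 bp outside that gene, in PRT6 (AT5G02310, chr5:473868-482942), which runs on the plus strand and overlaps the end of ATMYB3R5 by 150 bp. PRT6 encodes a ubiquitin ligase that recognises N-terminal degrons. In window 1 (chr5:474601-474800) the level was 0.668 in S2γ0 and 0.879 in S2γ30, a difference of +0.211. In window 2 (chr5:475801-476000) it was 0.941 in P0γ30, 0.887 in S2γ0 and 0.477 in S2γ30, so that S2γ30 differed by -0.464 and -0.411. Windows 1 and 2, 1000 bp apart in coding sequence, thus differed in opposite directions in S2γ0 vs. S2γ30. In window 3 (chr5:480601-480800), with 94 bp of coding sequence, it was 0.629 in P0γ30 and 0.369 in S1γ30, a difference of -0.259. By position, ATMYB3R5 itself was listed in 3 comparisons and PRT6 in 3.

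XI-F (AT2G31900, chr2:13560370-13570469), the longest of the 6 genes at 10100 bp, had 5 listed windows, more than any other of the 2066 names. They were 5 of the 51 windows with a CG in the gene, and they changed in different directions and at different steps. All 5 also overlapped the annotated antisense RNA gene AT2G31902. Window 1 (chr2:13560401-13560600) showed the largest differences of the 6 genes. Its level was 0.721 in P0γ30, 0.825 in S1γ30, 0.756 in S2γ0 and 0.0550 in S2γ30. The 3 other groups were highly methylated and S2γ30 was near 0, with differences of -0.666, -0.770 and -0.701. It held 2 CG sites in an untranslated exon at the 3′ end of the gene and was also classed as promoter by the authors. Of the 5 annotated transcripts, 3 end 76 or 160 bp before the window.

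XI-F window 5, near the start of the gene, had levels of 0.799 in P0γ30, 0.844 in S1γ30, 0.817 in S2γ0 and 0.411 in S2γ30. Differences were -0.388, -0.432 and -0.405, and both of its CG sites, at positions 6 and 22, lay in coding sequence. Windows 1 and 5, 8600 bp apart, shared the same low group. Of the 3 windows between them, windows 2 and 3 did not follow this course, being higher in S2γ30 than in S1γ30. Window 4 was lower in S2γ30 than in S1γ30, and its levels in P0γ30 and S2γ0 are unknown.

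Window 3 of XI-F (chr2:13567801-13568000) was lowest in S1γ30, at 0.438, with 0.841 in S1γ0 and 0.818 in S2γ30. It was the one window of the 6 genes listed against the S1 control, with a difference of -0.404 from S1γ0 and of +0.381 on to S2γ30. Window 4 (chr2:13568001-13568200), which adjoins it, went the other way, from 0.547 in S1γ30 to 0.312 in S2γ30, a difference of -0.236. Window 2 (chr2:13565401-13565600) went from 0.0975 in S1γ30 to 0.449 in S2γ30, a difference of +0.352. In S1γ30 vs. S2γ30, XI-F therefore had 3 hypomethylated and 2 hypermethylated windows.

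VIP4 (AT5G61150, chr5:24603634-24607725) had 3 windows, none of them above 0.463 in any listed group, with 4 hypermethylated and 2 hypomethylated entries. Window 3 was nearly unmethylated in 3 groups, at 0.0112 in P0γ30, 0.0118 in S1γ30 and 0.0198 in S2γ0, and reached 0.317 in S2γ30. This was the single window in which S2γ30 was higher than all 3 other groups, by +0.305, +0.305 and +0.297. Of its 3 CG sites, 2 lay in an intron and 1 in coding sequence, and the last CG stands at positions 199 and 200, the end of the window.

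VIP4 window 2, wholly in an intron with 2 CG sites, was at 0.00749 in P0γ30, 0.448 in S1γ30 and 0.0506 in S2γ30. Of these groups S1γ30 was the high one, with +0.441 from P0γ30 and -0.397 on to S2γ30, and no level in S1γ0 was listed. Window 1 (chr5:24604201-24604400), with 6 CG sites, went from 0.463 in S1γ30 to 0.157 in S2γ30, a difference of -0.305. Windows 2 and 3, 400 bp apart, thus moved in opposite directions from S1γ30 to S2γ30, and the gain in S1γ30 and the gain in S2γ30 were at different places in the gene.

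AT1G10320 (chr1:3384118-3388376) was listed in 3 comparisons, all within γ30, and no value at γ0 was listed for it. Window 1 had levels of 0.424 in P0γ30, 0.652 in S1γ30 and 0.428 in S2γ30, so that S1γ30 was higher by 0.228 than P0γ30, and S2γ30 returned to within 0.00393 of P0γ30. Of its 4 CG sites, 2 lay in coding sequence and 2 in an intron. Windows 2 and 3 adjoin each other in 1 intron and differed in opposite directions. Window 2 (chr1:3386601-3386800) went from 0.940 in S1γ30 to 0.668 in S2γ30, a difference of -0.272. Window 3 was at 0.592 in P0γ30, 0.594 in S1γ30 and 0.898 in S2γ30, with differences of +0.306 and +0.304.

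**Figure D3:**
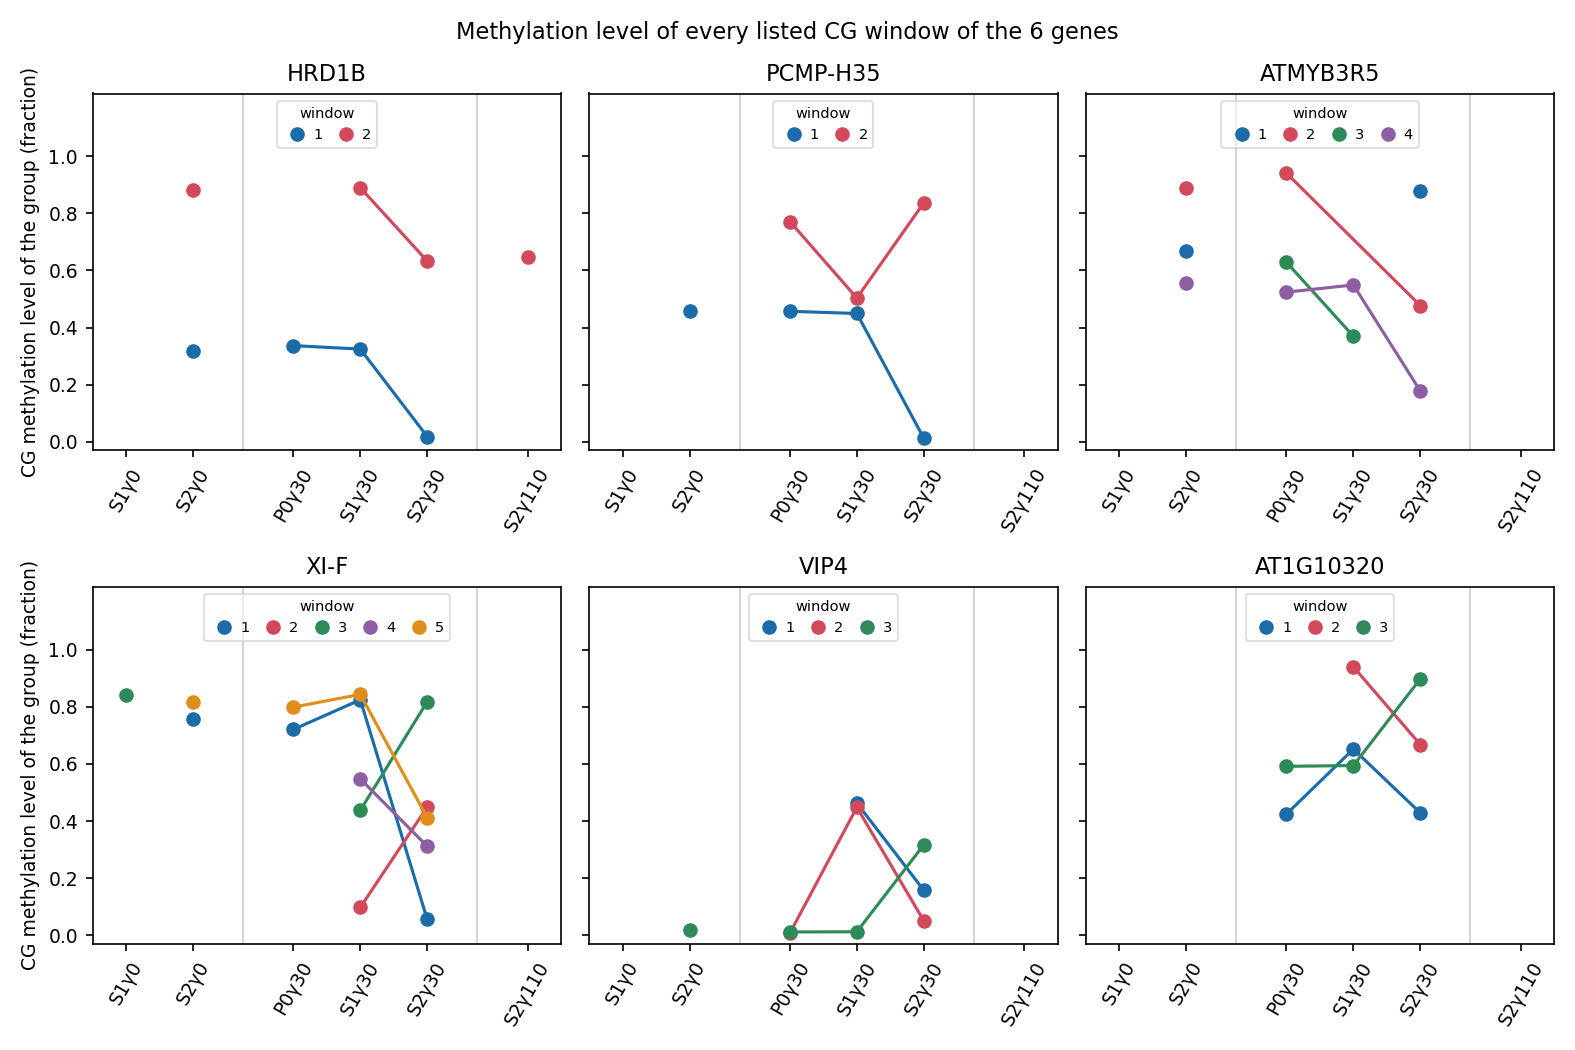
CG methylation level (fraction) of each window by group, 1 panel per gene. Points are the authors' level of a group, lines join the γ30 groups of 1 window in the order of generations, and grey lines separate control, γ30 and γ110 groups. Points at S2γ30 below 0.1 belong to HRD1B window 1, PCMP-H35 window 1, XI-F window 1 and VIP4 window 2. In VIP4 the points of windows 2 and 3 at P0γ30 lie on top of each other.

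Across the 6 genes, 6 windows had at least 1 group below 0.1. In 3 of them, HRD1B window 1, PCMP-H35 window 1 and XI-F window 1, S2γ30 was the one listed group below 0.1, and in VIP4 window 3 it was the one above it. In the 6 windows with S2γ30 apart from all 3 groups, those 3 other groups spanned from 0.00772 in PCMP-H35 window 1 to 0.104 in XI-F window 1. Of those 3 groups, the authors compared only P0γ30 with S1γ30, and that comparison listed none of these windows. S2γ0 was compared with neither P0γ30 nor S1γ30, so no difference between them could be listed. P0γ0, S1γ0 and all γ110 groups had no listed level in these windows. The comparison of S2γ30 with S2γ110 listed none of them, so S2γ30 is not shown to stand apart from S2γ110 there. In S1γ30 vs. S2γ30, 3 pairs of adjoining windows were listed, of which HRD1B windows 1 and 2 went the same way and the pairs in XI-F and AT1G10320 went opposite ways.

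Beside these genes, 20 other names had windows in 4 comparisons and AT3G32389 had windows in 5. Among the 2066 names, 1336 were listed in 1 comparison, 507 in 2 and 197 in 3, the last including AT1G10320. The other 5 genes were among the 25 names listed in 4. For number of windows, 5 names had at least 4, namely XI-F, ATMYB3R5, AGO4, AT1G50190 and AT3G48195.

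Genes of the same families or complexes were looked up by position or name. In the background, 1769 of 27444 protein-coding genes, or 6.45%, overlapped a listed CG window. The counts below are not like this share. Each includes the selected gene the list was built on, which was chosen for being listed, and a gene found by name need not overlap a window. Of 6 genes of the Paf1 complex, 3 had a listed window, VIP4, VIP5 and PHP. VIP5, another subunit of that complex, had a window of 4 CG sites (chr1:22484601-22484800) at 0.0571 in P0γ30, 0.0367 in S1γ30, 0.0315 in S2γ0 and 0.440 in S2γ30. S2γ30 was thus the high group in VIP5, as in VIP4 window 3, with differences of +0.383, +0.403 and +0.408. PHP, the subunit related to yeast Cdc73, went from 0.702 in S1γ30 to 0.402 in S2γ30. The authors listed the VIP5 window under AT1G61050 and the PHP window under AT3G22600, which are other genes.

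Of 5 genes of the R1R2R3-MYB family, 2 were named, ATMYB3R5 and MYB3R-4, which activates genes of the transition from G2 to M phase. The window named MYB3R-4 (chr5:3677601-3677800) lay 1948 bp upstream of that gene, within AT5G11500. Its level was 0.888 in P0γ30, 0.917 in S1γ30, 0.863 in S2γ0, 0.933 in S2γ110 and 0.494 in S2γ30. S2γ30 was the low group, as in ATMYB3R5 window 4, and here S2γ110 was listed too and lay with the other groups.

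Of 13 class XI myosins, XI-F, XI-G, XI-H and XI-K had a listed window. In XI-G the level was 0.664 in P0γ30, 0.633 in S1γ0 and 0.919 in S1γ30, so that S1γ30 was the high group, whereas in XI-F window 3 it was the low one. XI-H, whose window was listed under YUC8, went from 0.508 in S1γ0 to 0.260 in S1γ30, and XI-K from 0.550 in S1γ30 to 0.753 in S1γ110. Of 11 genes of the HRD1 pathway for protein removal from the endoplasmic reticulum, 2 had a listed window, HRD1B and CDC48, an ATPase that extracts proteins from membranes. CDC48, whose window was listed under AT3G09850, went from 0.0350 in S2γ0 to 0.285 in S2γ30, opposite to HRD1B. Of 5 U2AF genes, AT1G10320 was the one with a listed window. Without the selected gene, a listed window was found for 2 genes of the Paf1 complex, 3 class XI myosins and 1 gene of the HRD1 pathway. It was found for 1 R1R2R3-MYB gene, by name alone, and for 0 other U2AF genes. The lists are short, share groups among their comparisons and were chosen with earlier results known, so their counts were not tested against the background.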

How the data were processed

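Whole genome bisulfite sequencing of 45 samples in 9 groups of 5 was used. The authors mapped paired reads to TAIR10 with CLC Genomics Workbench, computed methylation levels per context in windows of 200 bp with a minimum site coverage of 5, compared pairs of groups, assigned the closest gene in CLC and the closest TE in bedtools, and adjusted p-values with R 3.5.0, as their methods and processing notes state. They kept windows that passed both a limit on the p-value and a difference of at least 20%. The deposited levels are fractions, 1 per group and window, in 18 tables, of which 8 hold a header alone.

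The tables also hold the authors' own p-values, adjusted p-values, differences and direction classes, which were not used. Differences were computed from the levels as the later generation or higher dose rate minus the other group. Each window was counted once per comparison. A level of a window given in several tables agreed in all of them. Since values per sample and coverage were not analysed here, depth is unknown and no test was made.

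The genes, the rule for naming and the family lists were chosen with earlier results of these data known. The text names the 6 genes, every gene of the lists with a listed window and the gene that 3 windows overlap. A list of PCMP-H genes found no such symbol in the annotation and was not used. Positions, exons and CG sites came from the RefSeq annotation of TAIR10.1, a release name that differs from that of the authors. The check of the builds found a CG in 2331 of 2331 listed CG windows, while 4.84% of genome windows had none. Windows that overlap an untranslated exon are not printed. Scripts were tested on simulated data and run with Python 3.11.15, NumPy 2.4.6, pandas 2.3.3 and matplotlib 3.10.9. Alternatives were a difference of at least 0.3, windows assigned by annotated position, with or without 2000 bp on either side, joining neighbours within 200 bp, and counting every deposited line.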

Additional observations from a re-analysis of the deposited data

How the results depend on the processing

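Of 42 alternative counts, 30 stayed within 1.5 times the value reported and 12 moved. With a difference of at least 0.3, HRD1B had 1 window, ATMYB3R5 had 2 and AT1G10320 had 1, in place of 2, 4 and 3. By annotated position ATMYB3R5 had 1 window, and 2 with the 2000 bp on either side, since the others lie in PRT6. Joining neighbours of 1 direction left HRD1B with 1 locus, since its windows adjoin. Counting every deposited line gave 6 for HRD1B, 5 for PCMP-H35, 7 for ATMYB3R5, 10 for XI-F, 6 for VIP4 and 5 for AT1G10320, since a window then counts once per comparison. The number of comparisons that list a gene stayed within 1.5 times for all 6 genes, from 2 to 4, at a difference of at least 0.3 and by annotated position. No paired analysis was possible because the tables hold groups and not samples. No sample was left out for the same reason, and the spread between samples is unknown.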
